A study of Mus musculus with 6 samples.

Results

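The CC chemokine genes described here are Ccl2, Ccl3, Ccl4, Ccl6, Ccl7, Ccl8, Ccl9 and Ccl12, measured in the hearts of mice with an old myocardial infarction. A feature belonged to the set if the array annotation gave it one of these symbols. The set held 8 of the 22206 features of the mouse Clariom S array, 1 feature for each gene, and no member had a repeated feature. The transgenic group (TTg, titled 12W-TTg) carried Tcf21iCre, the Tomato reporter and MGTH2A, a transgene for Mef2c, Gata4, Tbx5 and Hand2, and its 2 hearts were taken 3 months after the left coronary artery had been tied to infarct the heart. The control group at 3 months (Ctrl, titled 12W-Ctrl) carried Tcf21iCre and Tomato without MGTH2A (2 hearts). The control group at 2 months (titled 8W-Ctrl) had the same genotype as the other controls (2 hearts). All 6 mice were male, 8 weeks old at surgery, and shared Cre, reporter and infarction, so no uninjured heart serves as a baseline here. The Cre is driven by Tcf21, a gene of cardiac fibroblasts, and the labels name no inducing agent. RNA came from the whole heart, with 1 array per heart, so fewer cells of a type and less RNA per cell cannot be told apart.

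CC chemokines are small secreted proteins that bind to the matrix and to G protein-coupled receptors on leukocytes and draw these cells into tissue. In the infarcted heart, ligands of the receptor Ccr2 recruit inflammatory monocytes from blood. Macrophages of the scar and of the surviving muscle are themselves a main source of several of these ligands. Ccl2, Ccl7 and Ccl12 (the monocyte chemoattractant proteins, Ccl12 being a mouse gene) bind Ccr2. Mouse Ccl8 signals through Ccr8. Ccl3 binds Ccr1, and Ccl4 attracts monocytes and lymphocytes. Ccl6 and Ccl9 are rodent ligands of Ccr1 made by myeloid cells.

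All 8 genes lie on chromosome 11 in 2 clusters (GRCm38.p6, RefSeq). The first holds Ccl2, Ccl7, Ccl12 and Ccl8 in this order (chr11:82035577-82116799, 81.2 kb), with Ccl11, which is not a member, between Ccl7 and Ccl12. The second holds Ccl9, Ccl6, Ccl3 and Ccl4 (chr11:83572917-83664683, 91.8 kb), and 1456.1 kb separate the clusters. The RefSeq intervals of Ccl3 (chr11:83647843-83649378) and Ccl4 (chr11:83648624-83664683) overlap.

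RefSeq promoters, from 250 bases before to 50 bases after the gene start, were matched for 5 of the 8 members, namely Ccl3, Ccl6, Ccl8, Ccl9 and Ccl12. Those of 2 neighbouring pairs are shown because their genes had the widest spread over the arrays. Capitals mark runs of at least 8 bases that were identical within a pair after global alignment. Ccl9 (chr11:83578587-83578886) and Ccl6 (chr11:83593038-83593337) are read on the minus strand.
Ccl9: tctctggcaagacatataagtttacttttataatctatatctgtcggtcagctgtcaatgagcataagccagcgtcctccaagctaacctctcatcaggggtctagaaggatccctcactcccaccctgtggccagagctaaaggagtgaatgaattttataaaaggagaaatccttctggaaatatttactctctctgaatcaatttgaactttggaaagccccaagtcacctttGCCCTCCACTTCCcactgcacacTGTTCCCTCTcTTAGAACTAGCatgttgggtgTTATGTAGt
Ccl6: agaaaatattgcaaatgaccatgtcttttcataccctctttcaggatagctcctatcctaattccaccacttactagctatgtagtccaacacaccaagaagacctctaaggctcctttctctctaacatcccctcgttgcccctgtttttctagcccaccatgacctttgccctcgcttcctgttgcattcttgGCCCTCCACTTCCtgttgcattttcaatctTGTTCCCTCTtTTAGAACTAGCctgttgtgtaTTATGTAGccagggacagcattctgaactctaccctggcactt
Ccl8 (chr11:82114935-82115234) and Ccl12 (chr11:82101595-82101894) are read on the plus strand.
Ccl8: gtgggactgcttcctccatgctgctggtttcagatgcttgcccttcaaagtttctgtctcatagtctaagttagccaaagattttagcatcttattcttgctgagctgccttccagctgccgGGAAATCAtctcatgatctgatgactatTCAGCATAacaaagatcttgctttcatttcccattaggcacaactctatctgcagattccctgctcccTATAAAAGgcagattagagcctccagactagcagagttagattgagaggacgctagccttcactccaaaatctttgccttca
Ccl12: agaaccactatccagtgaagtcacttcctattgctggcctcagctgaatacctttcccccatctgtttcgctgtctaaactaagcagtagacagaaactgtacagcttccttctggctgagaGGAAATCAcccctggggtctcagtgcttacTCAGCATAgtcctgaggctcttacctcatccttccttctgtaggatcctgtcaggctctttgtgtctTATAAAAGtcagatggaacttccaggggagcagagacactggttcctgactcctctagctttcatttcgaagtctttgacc

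The Ccl9 and Ccl6 promoters shared 4 such runs, the longest of 13 bases, close to the gene start. The Ccl8 and Ccl12 promoters shared 3 runs of 8 bases, one of which holds the TATA box letters. Over the 300 bases, identity was 56.7% for Ccl9 and Ccl6 and 60% for Ccl8 and Ccl12, and the other 8 pairs among the 5 promoters lay between 51% and 57%. On either strand, TATAAA occurred in Ccl8 (from −32 to −27, counted from the first transcribed base), in Ccl12 (from −31 to −26) and in Ccl9, where 2 of its 3 matches overlapped, and it occurred in 13.6% of 32851 mouse promoters of this length. TGANTCA, the letters of an AP-1 element, occurred in Ccl9 alone of the 5, and in 7.81% of all promoters. A match to the NF-kB consensus was found in Ccl9 alone, and in 8.46% of all promoters. These are matches of letters and not sites of binding.

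The deposited values are log2 signals, and each gene has its own probes, so values are compared between arrays and not between genes. Signals ran from 1.77 to 19.93, and array medians from 4.91 to 5. The mean of every member lay above the 30th percentile of feature means (3.65), below which a feature was taken as dim. Replicates correlated at 0.989 for TTg, 0.986 for Ctrl at 3 months and 0.984 for Ctrl at 2 months. Of the transgene factors, Tbx5 read 10.72 and 9.31 in TTg, 6.42 and 7.47 in 3-month Ctrl hearts and 7.79 and 7.98 in 2-month Ctrl hearts. The feature does not separate the transgene from the native gene. Its difference of TTg from Ctrl at 3 months was 3.07 ± 0.52, with an adjusted p of 0.646 in limma. This was the largest of the 4 factors, whose differences ran from 0.255 to 3.07. Heart muscle markers averaged between 17.88 and 18.42 on every array. Some of them lay at the top of the signal range, such as Myl2 at 19.93 on all 6 arrays. Atrial markers averaged 7.56 on Ctrl 3-month replicate 2, against 11.98 to 14.95 on the other 5 arrays.

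TTg hearts were compared with Ctrl hearts of the same age after infarction to see what the transgene altered in the chronic infarct. The signal was lower in TTg for 7 of the 8 chemokine genes, and 5 of them, Ccl9, Ccl8, Ccl6, Ccl3 and Ccl12, were at least 2-fold lower, against 2.88% of all features. The median log2 difference of the 8 genes was −1.46, beside 0.01 over all features. For the same 5 genes both TTg arrays lay below both Ctrl arrays, which was so for 19.3% of all features. For Ccl7 both TTg arrays lay above both Ctrl arrays, as for 4241 of the 22206 features. No member passed limma's test at an adjusted p under 0.05, a threshold that 0.0045% of features passed. At limma's unadjusted p under 0.05, 4 members were lower (Ccl9, Ccl3, Ccl8 and Ccl6) and 0 higher, and 4.11% of features were lower by this rule. Leaving out Ctrl 3-month replicate 1 moved the median to −0.485, and leaving out Ctrl 3-month replicate 2, the array with low atrial markers, moved it to −1.84. Without that second array the differences were −3.24 for Ccl9, −2.79 for Ccl8, −2.625 for Ccl12, −2.315 for Ccl6, −1.365 for Ccl3, −1.17 for Ccl2, −0.125 for Ccl4 and 0.35 for Ccl7.

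Among the Ccr1 ligands, Ccl9, which attracts myeloid cells and osteoclast precursors in mice, had signals of 9.47 and 8.88 in TTg, 12.42 and 11.27 in 3-month Ctrl hearts and 11.43 and 10.23 in 2-month Ctrl hearts. Both TTg arrays lay below all 4 control arrays, and the 2 control groups overlapped. The log2 difference of TTg from Ctrl at 3 months was −2.67 ± 0.51 (SE, n = 2 arrays per group, 6.36-fold lower, adjusted p = 0.646 in limma). It ran from −3.24 to −2.10 when any 1 array was left out.

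Ccl6, a chemokine of macrophages and other myeloid cells whose gene neighbours Ccl9, read 7.39 and 7.72 in TTg, 9.87 and 8.34 in 3-month Ctrl hearts and 9.40 and 8.15 in 2-month Ctrl hearts. Again the TTg arrays were below all controls, and the controls of both ages had 1 high and 1 lower array. The difference from Ctrl at 3 months was −1.55 ± 0.57 (2.93-fold lower, adjusted p = 0.661 in limma), and −0.785 without Ctrl 3-month replicate 1.

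Ccl3, macrophage inflammatory protein 1 alpha, read 3.84 and 3.79 in TTg, 5.18 and 5.49 in 3-month Ctrl hearts and 4.86 and 4.13 in 2-month Ctrl hearts. The 3 groups did not overlap, with TTg lowest and Ctrl at 3 months highest. The difference from Ctrl at 3 months was −1.52 ± 0.30 (2.87-fold lower, adjusted p = 0.646 in limma). Both TTg values were close to the dim limit of 3.65. Ccl4, a chemokine of activated macrophages and lymphocytes whose gene is next to Ccl3, read 5.36 and 5.29 in TTg, 5.45 and 5.36 in 3-month Ctrl hearts and 5.12 and 5.39 in 2-month Ctrl hearts. It varied by 0.33 over all 6 arrays, and its difference from Ctrl at 3 months was −0.08 ± 0.23 (95% interval −0.62 to 0.46).

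Ccl8, mouse monocyte chemoattractant protein 2, read 4.75 and 5.15 in TTg, 7.74 and 6.17 in 3-month Ctrl hearts and 7.17 and 5.72 in 2-month Ctrl hearts. TTg lay below all 4 controls, and the 2 control groups overlapped. Its difference from Ctrl at 3 months was −2.005 ± 0.62 (4.01-fold lower, adjusted p = 0.661 in limma), and −1.22 without Ctrl 3-month replicate 1. Ccl8 and Ccl6, from different clusters, were each other's closest member over the 6 arrays (Pearson r = 0.996, a description over arrays that share group and heart).

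Of the Ccr2 ligands, Ccl12 read 5.29 and 4.96 in TTg, 7.75 and 5.31 in 3-month Ctrl hearts and 8.46 and 6.55 in 2-month Ctrl hearts. Its TTg arrays were the 2 lowest of the 6, but Ctrl 3-month replicate 2 lay only just above them. The difference from Ctrl at 3 months was −1.40 ± 0.85 (adjusted p = 0.761 in limma), and −0.185 without Ctrl 3-month replicate 1.

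Ccl2, the best known monocyte attractant of the infarct, read 4.78 and 4.72 in TTg, 5.92 and 4.38 in 3-month Ctrl hearts and 4.62 and 4.61 in 2-month Ctrl hearts. A single array, Ctrl 3-month replicate 1, stood above the other 5. The difference from Ctrl at 3 months was −0.40 ± 0.46 (95% interval −1.49 to 0.69), and 0.37 without that array. Ccl7 read 5.24 and 5.24 in TTg, 4.89 and 4.73 in 3-month Ctrl hearts and 6.18 and 4.77 in 2-month Ctrl hearts. It was the 1 member with a higher mean in TTg than in Ctrl at 3 months, by 0.43 ± 0.43 (95% interval −0.59 to 1.45), and its highest value was on a Ctrl array at 2 months. These intervals do not show that Ccl2, Ccl4 and Ccl7 were alike in the groups, since their wider ends reach differences of 0.62 to 1.49 in size.

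**Figure D1:**
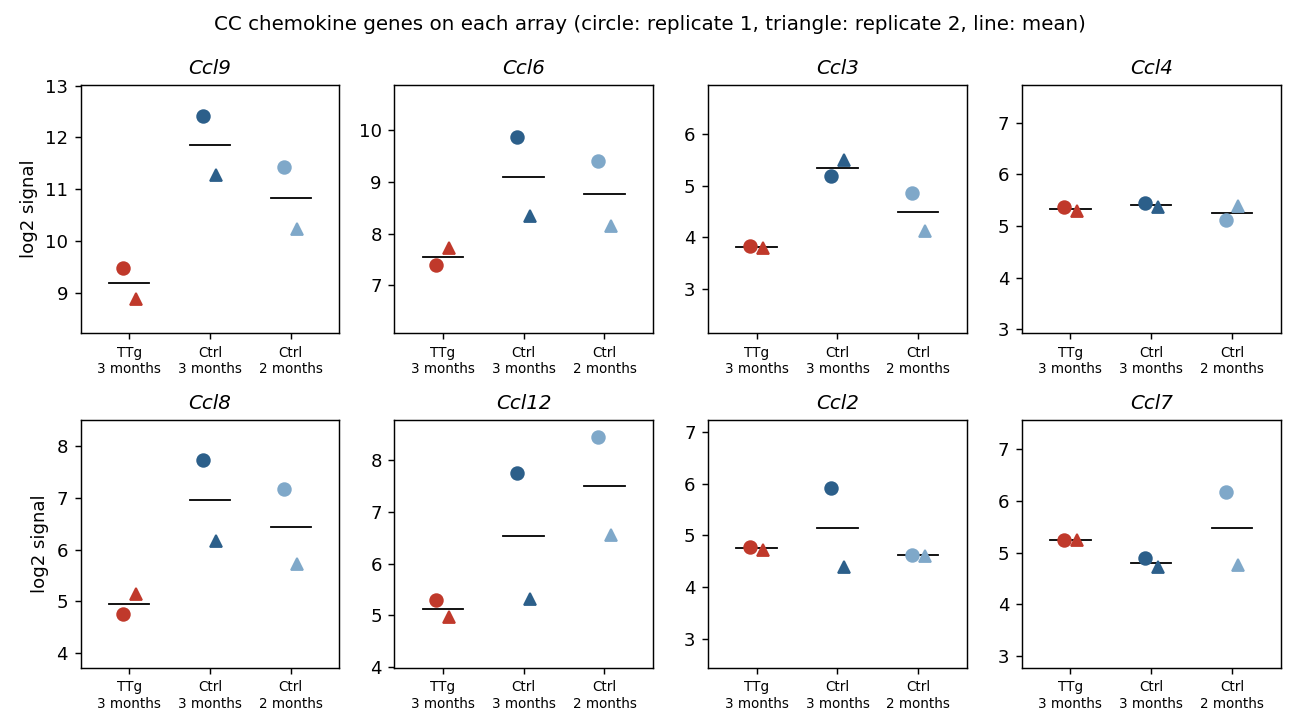
Log2 signal (y axis, 1 panel per gene, each spanning the same range) on the 2 arrays of TTg at 3 months, Ctrl at 3 months and Ctrl at 2 months, with the circle for replicate 1, the triangle for replicate 2 and the line for the mean. Ccl9, Ccl6, Ccl8, Ccl12 and Ccl3 are lowest on the 2 TTg arrays, whereas Ccl4 varies by 0.33 over all 6 arrays.

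The second control group, at 2 months, comes from different hearts and asks whether the lower TTg signals also hold against an earlier stage. This comparison joins genotype and time, and it uses the same TTg arrays as the one above. The median difference of the 8 genes was −0.95, beside 0.02 over all features. Both TTg arrays lay below both Ctrl 2-month arrays for 5 members, against 18.9% of features, and 4 members were at least 2-fold lower, against 3.44%. For Ccl2 both TTg arrays lay above both Ctrl 2-month arrays, as for 4699 of the 22206 features. No member passed limma's test, nor did any of the 22206 features (0% called). At an unadjusted p under 0.05 in limma, Ccl9, Ccl12 and Ccl8 were lower, against 5.41% of features lower by this rule.

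Ccl12 had the widest of these differences, −2.38 ± 0.85 (SE, n = 2 arrays per group, 5.21-fold lower, adjusted p = 0.458 in limma). Ccl9 differed by −1.66 ± 0.51 (adjusted p = 0.410 in limma), Ccl8 by −1.50 ± 0.62, Ccl6 by −1.22 ± 0.57 and Ccl3 by −0.68 ± 0.30. The differences of Ccl2 (0.14 ± 0.46), Ccl4 (0.07 ± 0.23) and Ccl7 (−0.24 ± 0.43) were within 1 SE of 0. Without Ctrl 2-month replicate 1 the median was −0.455, with Ccl12 at −1.42, Ccl9 at −1.05, Ccl8 at −0.77, Ccl6 at −0.595 and Ccl3 at −0.315. Without Ctrl 2-month replicate 2 the median was −1.44.

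Between 3 and 2 months, the members of control hearts were not all shifted one way. Of the 8 genes, 6 had a higher mean at 3 months and 2, Ccl12 and Ccl7, a lower one, with a median of 0.42 beside 0.01 over all features. Ccl3 was the only member whose groups did not overlap upward (18.3% of features) and the only one higher at an unadjusted p under 0.05 in limma (3.91% of features), with a difference of 0.84 ± 0.30 (n = 2, adjusted p = 0.562). Ccl9 was the only member at least 2-fold higher (1.70% of features), by 1.01 ± 0.51. Without Ctrl 2-month replicate 2 these differences were 0.475 for Ccl3 and 0.415 for Ccl9. No member passed limma's adjusted threshold, which 0.0045% of features passed. When Ctrl 3-month replicate 1 was left out the median became −0.255, and when Ctrl 2-month replicate 2 was left out it became 0.035. It became 0.89 when Ctrl 3-month replicate 2 was left out and 0.75 when Ctrl 2-month replicate 1 was. Leaving out 1 array turned the sign of the Ccl2, Ccl6, Ccl7, Ccl8 and Ccl12 differences.

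**Figure D2:**
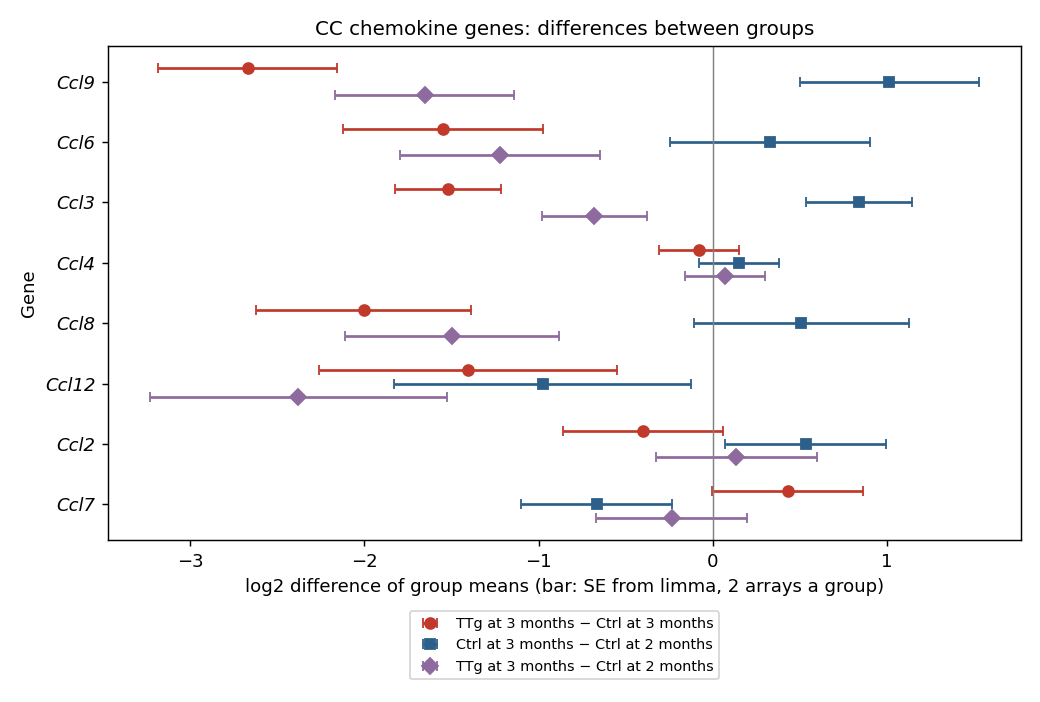
Log2 difference of group means with its SE from limma (x axis) for each gene (y axis) in the 3 comparisons, 2 arrays per group. Ccl9 has the largest difference of TTg from Ctrl at 3 months (−2.67), and the Ccl4 bars include 0 in all 3 comparisons.

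Control hearts of 1 group lay far apart for several members. In Ctrl at 3 months replicate 1 exceeded replicate 2 by 2.44 for Ccl12, 1.57 for Ccl8, 1.54 for Ccl2, 1.53 for Ccl6 and 1.15 for Ccl9. In Ctrl at 2 months it did so by 1.91 for Ccl12, 1.45 for Ccl8, 1.41 for Ccl7, 1.25 for Ccl6 and 1.2 for Ccl9. The 2 TTg arrays lay within 0.59 of each other for every member. Replicate 1 was the higher one for 7 of 8 members in both control groups, and for 5 of 8 in TTg. Over all features it was the higher one for 50.4% in TTg, 51.0% in Ctrl at 3 months and 47.2% in Ctrl at 2 months. The SE from limma pools the spread of all 3 groups.

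**Figure D3:**
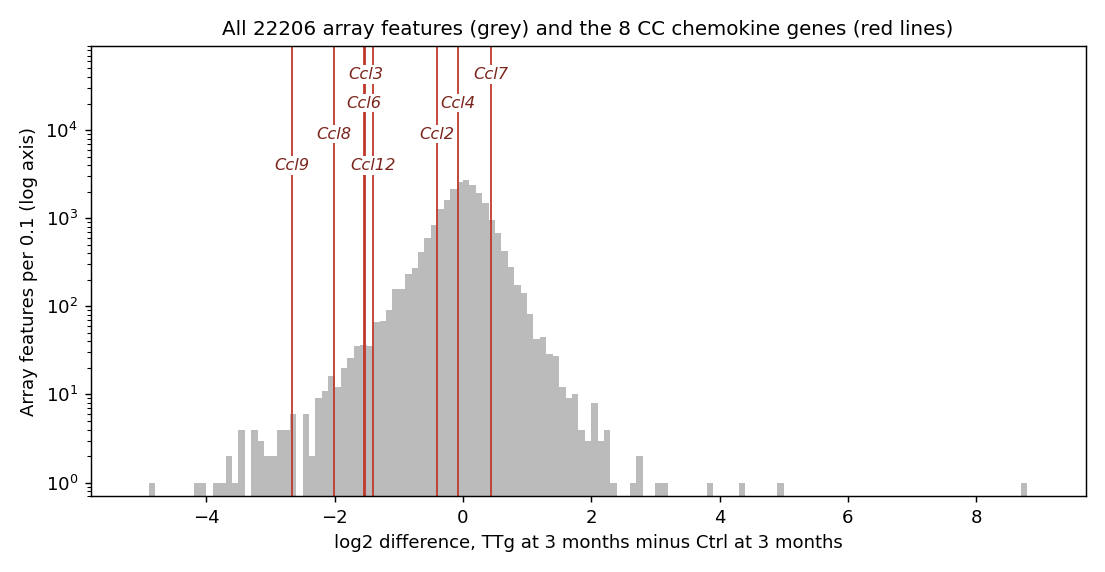
Number of array features (y axis, log scale) by log2 difference of TTg at 3 months minus Ctrl at 3 months (x axis), with red lines at the 8 chemokine genes. The genes spread from −2.67 for Ccl9 to 0.43 for Ccl7, while the median over all features is 0.01.

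Most CC receptor genes were dim, and the list also holds receptors of other ligands. Ccr1, Ccr2 and Ccr7 were not dim. Of 9 CC receptor genes, 6 were dim, 0 passed limma's test, 5 had a lower and 4 a higher mean in TTg than in Ctrl at 3 months, and the median difference was −0.05. Ccr2, the receptor of Ccl2, Ccl7 and Ccl12 on monocytes, read 3.44 and 3.67 in TTg, 4.79 and 4.52 in 3-month Ctrl hearts and 6.07 and 4.17 in 2-month Ctrl hearts. TTg was below all 4 controls, by −1.10 ± 0.56 from Ctrl at 3 months (adjusted p = 0.707 in limma). The Ccr2 values of TTg lay near the dim limit of 3.65, below and above it. Ccr1, the receptor of Ccl3, Ccl6 and Ccl9, read 4.12 and 2.90 in TTg, 4.94 and 3.68 in 3-month Ctrl hearts and 4.34 and 3.82 in 2-month Ctrl hearts, and its groups overlapped (−0.80 ± 0.53). The lower Ccr1 value of TTg was under that limit. Ccr8, the receptor of mouse Ccl8, differed by −0.375 ± 0.24 and Ccr3 by −0.215 ± 0.33. Ccr4 (0.495 ± 0.24), Ccr7 (0.25 ± 0.31), Ccr10 (0.245 ± 0.25), Ccr6 (0.055 ± 0.22) and Ccr9 (−0.05 ± 0.30) bind other CC chemokines.

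Of the 14 other CC chemokine genes, 8 had a lower and 6 a higher mean in TTg than in Ctrl at 3 months, 0 passed limma's test, and the median was −0.05. Ccl11, the eosinophil attractant encoded between Ccl7 and Ccl12, had a higher mean in TTg than in Ctrl at 3 months, as Ccl7 on one side of it did, while Ccl12 on the other side had a lower one. It read 6.97 and 7.88 in TTg, 5.41 and 6.51 in 3-month Ctrl hearts and 6.68 and 7.93 in 2-month Ctrl hearts. Both TTg arrays lay above both Ctrl 3-month arrays but not above Ctrl at 2 months (1.46 ± 0.55 and 0.12 ± 0.55, adjusted p = 0.661 and 0.963 in limma). Of 17 CXC, CX3C and XC chemokine genes, 7 were dim and 12 had a lower mean in TTg than in Ctrl at 3 months (median −0.29). Ppbp, a platelet chemokine, differed by 3.11 ± 2.04 and Cx3cl1 by −0.95 ± 0.33. The Ppbp difference rests on TTg replicate 2. Ppbp read 3.09 and 10.7 in TTg, 4.11 and 3.46 in 3-month Ctrl hearts and 7.13 and 6.49 in 2-month Ctrl hearts. Of the 8 CXC, CX3C and XC receptor genes, 5 were dim and 4 were lower (median −0.04). Cxcr6 differed by −1.16 ± 0.29 and Xcr1 by −1.05 ± 0.43, and both were dim. The 5 atypical receptor genes, which bind chemokines without G protein signalling or present them, had a median of 0.01, with Ackr4 at −0.665 ± 0.27. None of these 30 genes passed limma's test.

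Genes that carry the receptor signal in leukocytes had a lower mean in TTg than in Ctrl at 3 months for 9 of 9 measured (median −0.425), with Dock2, a regulator of leukocyte migration, at −1.22 ± 0.41. Against Ctrl at 2 months 8 of the 9 were lower (median −0.16). Targets of NF-kB and the cytokines that drive them had a lower mean in TTg than in Ctrl at 3 months in 17 of 19 (median −0.485), with Ptgs2 at −1.74 ± 0.47. Against Ctrl at 2 months, 9 of these 19 had a lower mean and 10 a higher one (median 0.055). No gene of these lists passed limma's test in any comparison.

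Macrophage and monocyte markers also had lower means in TTg. All 15 measured macrophage markers had a lower mean in TTg than in Ctrl at 3 months (median −1.30), and 9 of them were lower without overlap, against 19.3% of all features. Against Ctrl at 2 months all 15 were again lower (median −1.43). Their mean log2 signal was 7.67 and 7.29 in TTg, 9.26 and 8.00 in 3-month Ctrl hearts and 9.17 and 8.48 in 2-month Ctrl hearts. C1qb, a complement gene of macrophages, differed by −2.10 ± 0.64 and Lyz2 by −2.06 ± 0.61. The monocyte markers had a lower mean in TTg than in Ctrl at 3 months in 7 of 7 (median −0.705) and than in Ctrl at 2 months in 7 of 7 (median −0.965), with list means of 6.02 and 5.96 in TTg, 7.21 and 6.38 in 3-month Ctrl hearts and 6.86 and 6.66 in 2-month Ctrl hearts. No macrophage or monocyte marker passed limma's test, 2 of the 7 monocyte markers and 0 of the 15 macrophage markers were dim, and their part in the chemokine differences was not tested.

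Across the 6 arrays, with the 3 groups pooled, the mean of the macrophage markers ran with Ccl12 (Pearson r = 0.959, Spearman rho = 0.943), Ccl6 (r = 0.921, rho = 0.886), Ccl8 (r = 0.909, rho = 0.886) and Ccl9 (r = 0.873, rho = 0.943). Without the 2 arrays farthest from the median of the macrophage mean these r were 0.975 for Ccl12, 0.919 for Ccl6, 0.870 for Ccl8 and 0.646 for Ccl9. Ccl3 (r = 0.595), Ccl2 (r = 0.501), Ccl7 (r = 0.255) and Ccl4 (r = −0.095) gave lower values over the 6 arrays. Without those 2 arrays r was 0.244 for Ccl3, −0.086 for Ccl2, 0.673 for Ccl7 and −0.801 for Ccl4. The value of Ccl7 then lay above that of Ccl9. Over the 6 arrays, other lists gave values as high or higher in size for several members. Monocyte markers had an r of 0.940 with Ccl6, 0.934 with Ccl8 and 0.899 with Ccl9, and fibroblast markers one of 0.904 with Ccl9. Immediate early genes had an r of 0.818 with Ccl2, but a rho of 0.086. Heart muscle markers had an r of −0.997 with Ccl12 and, smaller in size than the macrophage value, −0.890 with Ccl6. The same check left out the 2 arrays farthest from the median of each list's own mean. Monocyte markers then had an r of 0.892 with Ccl6, 0.869 with Ccl8 and 0.695 with Ccl9, and fibroblast markers 0.740 with Ccl9. Heart muscle markers had −0.993 with Ccl12 but −0.346 with Ccl6, and immediate early genes −0.299 with Ccl2. These points share heart and group, and the values only describe 6 arrays and single out no list.

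Fibroblast markers, from the cells in which Tcf21iCre acts, had a lower mean in TTg than in Ctrl at 3 months in 7 of 7 (median −1.29) and than in Ctrl at 2 months in 5 of 7 (median −1.32), with list means of 11.31 and 9.99 in TTg, 12.59 and 11.71 in 3-month Ctrl hearts and 12.58 and 10.88 in 2-month Ctrl hearts. Immediate early genes, which answer stimuli within minutes, had a lower mean in TTg than in Ctrl at 3 months in 20 of 20 (median −0.95), with list means of 6.61 and 7.02 in TTg, 8.64 and 7.42 in 3-month Ctrl hearts and 7.00 and 6.70 in 2-month Ctrl hearts. Against Ctrl at 2 months 13 of the 20 were lower and 7 higher (median −0.155), and the list means overlapped. Ctrl 3-month replicate 1, the array highest for Ccl9, Ccl6, Ccl8 and Ccl2, was also the highest for both lists, for fibroblast markers by little. It was the highest for other lists too, among them the macrophage and monocyte markers and the NF-kB targets. The part of fibroblasts and of immediate early genes in the chemokine differences was not tested.

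Lists of other immune cells had medians nearer 0. The medians of TTg minus Ctrl at 3 months were −0.32 for 6 B and plasma cell genes, −0.245 for 7 dendritic cell genes, −0.20 for 10 T and NK cell genes, 0.01 for 8 neutrophil genes and 0.36 for 7 mast cell genes. Of these, 4, 6, 7, 5 and 2 genes were dim. Jchain of the B lineage list was the 1 gene in any list to pass limma's test. It was lower in TTg than in Ctrl at 3 months, by −4.055 (adjusted p = 0.0278 in limma), far from the median of its list. Its signals were 4.75 and 5.08 in TTg, 9.07 and 8.87 in 3-month Ctrl hearts and 7.18 and 6.69 in 2-month Ctrl hearts. Endothelial markers had a median of −0.01 and heart muscle markers one of 0.15, with heart muscle differences from 0 to 0.85. Of the latter, Myl2 read 19.93, the highest signal of the data, on all 6 arrays, where a rise could not show.

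**Figure D4:**
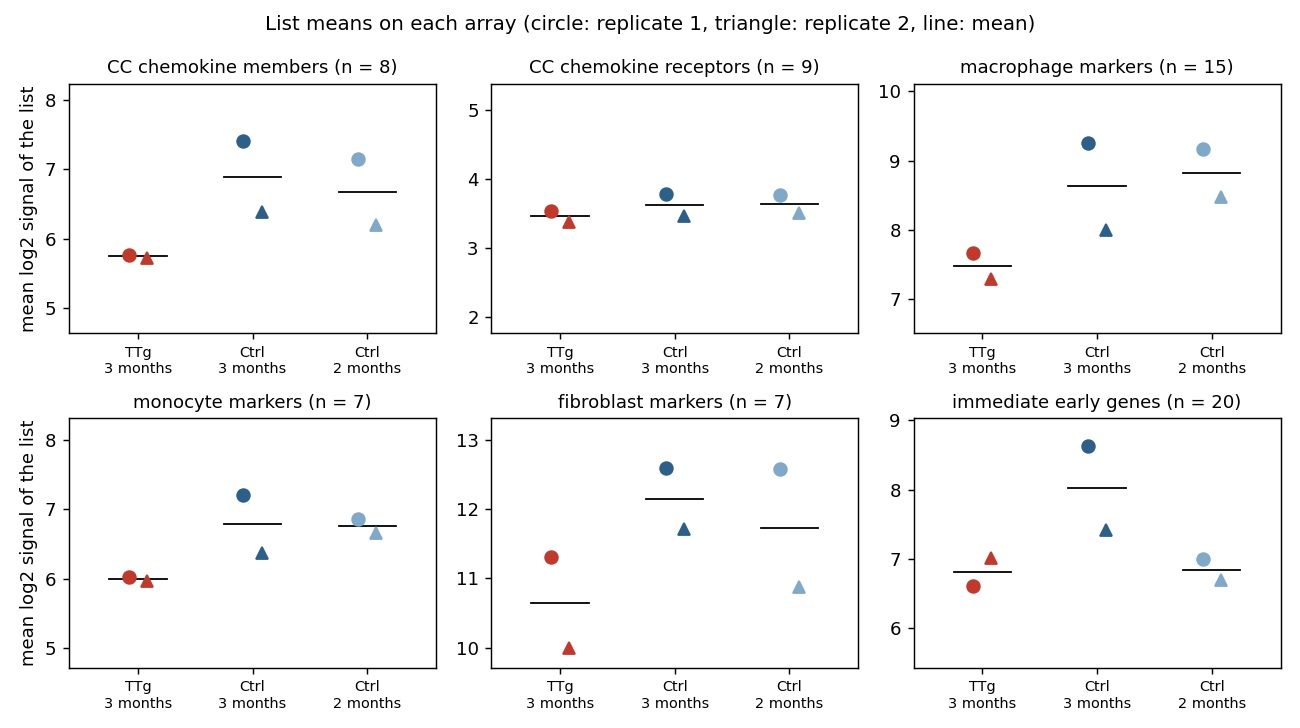
Mean log2 signal (y axis, each panel spanning the same range) of 6 gene lists on each array, by group, with the circle for replicate 1, the triangle for replicate 2 and the line for the group mean. The chemokine members average 5.77 and 5.72 in TTg, 7.40 and 6.38 in 3-month Ctrl hearts and 7.15 and 6.19 in 2-month Ctrl hearts, and the macrophage markers are also lowest on the 2 TTg arrays.

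The features most like the mean of the 8 members over the 6 arrays, of 6863 with 1 symbol and a range of at least 1, were C1ra (Pearson r = 0.996), B2m (0.993), Tagln2 (0.991), Fmod (0.991) and Cyb5r3 (0.990). C1ra, a complement protease, read 7.51 and 7.47 in TTg, 9.76 and 8.22 in 3-month Ctrl hearts and 9.56 and 8.03 in 2-month Ctrl hearts. It was low in both TTg hearts and higher in replicate 1 of each control pair. Fmod, a collagen-binding proteoglycan, read 5.18 and 4.25 in TTg, 10.16 and 6.59 in 3-month Ctrl hearts and 8.90 and 6.31 in 2-month Ctrl hearts. These genes were picked for the highest r among many, so r describes the choice.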

How the data were processed

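The deposited table held log2 values that the authors summarised per array feature. The submitters' processing notes list Transcriptome Analysis Console 4.0, while the background correction and normalization are not given in the sources used here. Per the labels, 100 ng of RNA with an integrity number above 7.0 was labelled per array. No detection calls were used. Of 22206 features, 19572 had 1 symbol, 0 several and 2634 none. Where a list gene had several features, the one with the highest mean stood for it, and 191 of 204 list entries were measured. One gene, Xcr1, stood in 2 lists.

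limma 3.58.1 in R 4.3.3 was fitted to all features and all 6 arrays with 1 coefficient per group (3 residual and 4.13 prior degrees of freedom), with no replicate block. Each two-sided p was adjusted by Benjamini-Hochberg within a comparison, over all its features, and called under 0.05. The error is the SE of this fit. Hearts within a group are separate biological replicates per the design text. With 2 arrays against 2, the smallest exact permutation p is 0.333. The number of arrays limits the precision.

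Named were all 8 members, all measured CC receptors, passing members or else the 3 largest differences of TTg minus Ctrl at 3 months in each list (fewer where not needed), and the 5 features most like the members' mean. Tbx5 and Jchain fall under this rule. Members, lists and alternatives were chosen with earlier results of these data known.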

Additional observations from a re-analysis of the deposited data

How the results depend on the processing

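No member passed limma's adjusted threshold in 14 of the 16 alternatives, for any comparison. With an unadjusted p and a 2-fold minimum, 4 members passed for TTg against Ctrl at 3 months, 3 for TTg against Ctrl at 2 months and 0 between the control ages. With the replicate block, 1 member passed for TTg against Ctrl at 3 months, Ccl9 at −2.67 ± 0.27 (adjusted p = 0.0457, range 0.0457 to 0.999 over the alternatives), and the features called went from 1 to 11 of 22206. The block changed no other member's call. Deviations of same-numbered hearts from their group means correlated at 0.12 to 0.14 across features, but a comparison holds only 2 such pairs and no label ties the numbers together, so they are not taken as pairs. The median of the members for TTg minus Ctrl at 3 months ran from −1.84 to −0.485 over the arrays left out, with the second value without Ctrl 3-month replicate 1. No alternative that kept all arrays turned a member's sign. Leaving out 1 array turned Ccl2 for TTg minus Ctrl at 3 months (−1.17 to 0.37). For Ctrl at 3 months minus Ctrl at 2 months it turned Ccl2 (−0.235 to 1.30), Ccl6 (−0.435 to 1.09), Ccl8 (−0.275 to 1.29), Ccl12 (−2.19 to 0.245) and Ccl7 (−1.37 to 0.04). For TTg minus Ctrl at 2 months it turned Ccl4 (−0.065 to 0.205) and Ccl7 (−0.94 to 0.47). These ranges come from fits with 1 array in a group, assumed to vary like the other groups. Quantile normalization and median centring moved the median of all features by at most 0.04. No member had a second feature, so the choice among repeated features changed nothing.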

Other observations

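Ccl21a and Ccl21b, lymphatic chemokines that guide dendritic cells and lymphocytes, stood high on 1 control array. Ccl21a read 11 and 10.96 in TTg, 11.64 and 12.40 in 3-month Ctrl hearts and 15.62 and 10.58 in 2-month Ctrl hearts. The 15.62 was on Ctrl 2-month replicate 1. The Ccl21 genes are near-identical copies, so the 2 features are not independent.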
